A study of Mus musculus with 3 samples.

Results

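The comparison set ZOL against PBS, gene by gene, in RNA from dural cells of treated mice, the dura being the tough outer membrane of the brain. Genes entered if they were protein-coding and stood at 1 RPKM or more in both libraries (RPKM is a read count scaled to exon length and library size, here as deposited), and names beginning with Olfr, Vmn or mt-, Gm names with a number and Rik names were left out. Of the 54532 genes in each file, 21995 were protein-coding, 18432 passed the name filter and 4548 were compared. The genes were chosen by their measured RPKM in the 2 libraries compared, so presence in both is a condition and not a finding. A further 4603 genes reached the floor in ZOL only, 2623 in PBS only and 6658 in neither.

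All mice in the study had been inoculated with 4T1-DM (4T1 is a carcinoma line of mouse mammary gland) and were treated with 1 of 3 agents, named in the labels only as PBS (a salt buffer), ZOL and ZOL+Ang2. Cells without CD45 (the leukocyte protein encoded by Ptprc) and with CD31 (Pecam1, an endothelial protein) and podoplanin (Pdpn) were obtained from the dorsal dura 12 days after inoculation, and 6 mice were pooled into 1 library per group. The sources used here give no strain, sex, age, dose or schedule. With 1 library on either side no test was possible, no p-value is given, and an interval beside a fold covers counting error only and not the spread between mice. The ZOL+Ang2 library, also 1 pool, is quoted as context.

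As background, CD31 with podoplanin and without CD45 is a usual signature of lymphatic endothelium, the lining of the vessels that drain fluid and cells from tissue, and the dura has such vessels. Lymphatic identity is set by the transcription factor PROX1, and growth of the vessels depends on the receptor VEGFR3, the product of Flt4. Blood endothelium shares most endothelial genes with it, among them TIE2, the receptor of the angiopoietins, and its co-receptor TIE1.

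The libraries were unequal. PBS had 1675532 reads as recovered from the deposited RPKM, against 16586760 for ZOL and 9204901 for ZOL+Ang2. The genes compared held 38.9% of the PBS reads, 64.0% of the ZOL reads and 61.7% of the ZOL+Ang2 reads. A compared gene had a median of 70 reads in PBS and 930 in ZOL. For a gene with 2 kb of exon, 1 read was worth 0.446 RPKM in PBS and 0.0211 RPKM in ZOL, so 3 reads met the floor in PBS. The amplified reads carry no molecular identifiers, so reads of 1 molecule may be counted more than once and the intervals cover counting error only. Of the genes with 1 to 40 reads, an even count was held by 61.0% in the PBS library, against 53.2% for ZOL and 51.0% for ZOL+Ang2.

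The deposited values of the genes compared were lower in ZOL by a median of 0.54 on the log2 scale. All PBS values below are therefore the deposited RPKM multiplied by 0.688, which brings the median log2 ratio of the compared genes to 0, and all ZOL and ZOL+Ang2 values are as deposited. Where 2 levels of a gene follow each other, the first is ZOL and the second PBS, and a value after them is ZOL+Ang2. On this scale 1375 of 4548 genes (30.2%) stood at least 2-fold higher in ZOL and 1362 (29.9%) at least 2-fold lower, while 1811 lay within 2-fold. Of the genes past 2-fold, 50.2% were higher with this scaling and 35.8% with the deposited values unscaled. The log2 ratios had an SD of 2.14 across genes, with a range from -6.86 to 7.91. At least 4-fold separated 783 higher and 654 lower genes, and at least 16-fold separated 267 higher and 64 lower genes. The counting interval lay wholly past 2-fold for 1028 higher and 1124 lower genes. The median of a list depended on the floor where many of its genes had few PBS reads, so it is given also at a floor of 5 RPKM, or with another setting, where that turned it or moved it far. Each other floor or read minimum reset the median of its own genes to 0. That reset alone moved every ratio, by -0.085 at a floor of 5 RPKM, -0.18 at 0.5 RPKM and 0.45 with at least 20 reads in both. In every list below, the counts of genes higher and lower are to be read against these shares of 30.2% and 29.9%. Counts in ZOL only or in PBS only are to be read against 4603 and 2623 of all 18432 genes.

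**Figure D1:**
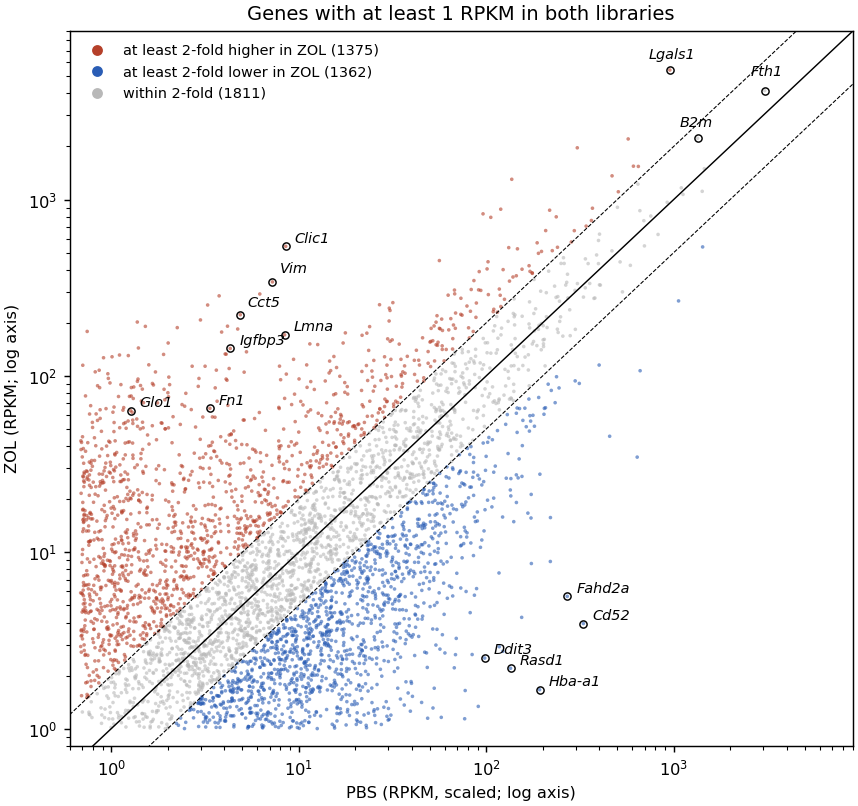
Each point is 1 of the 4548 genes compared, with its scaled PBS level on the horizontal axis and its ZOL level on the vertical axis, both in RPKM on log axes. The solid line marks equal levels, the dashed lines mark 2-fold, and the named genes are among the most abundant or the furthest apart. The cloud is narrowest at its top and bottom ends and widest between, and most of the genes far above the lines sit near the PBS floor.

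The ratio was tied to the depth behind the PBS value, which is one of its terms. Among the 233 genes with 1 to 4 PBS reads the median log2 ratio was 4.44, and 95.7% were at least 2-fold higher in ZOL. Between 5 and 19 reads (706 genes) the median was 2.15. With 20 to 99 reads (1769 genes) it was 0.07, with 25.2% higher and 23.3% lower, and with 100 reads or more (1840 genes) it was -1.03, with 9.46% higher and 50.7% lower. Of the 267 genes at least 16-fold higher in ZOL, 139 had 1 to 4 PBS reads and 119 had 5 to 19. Such a gene met the PBS floor with a handful of reads while its ZOL value was free to be high, so the counts of higher genes describe these libraries and carry little precision for any single gene. Genes with at least 20 reads in both libraries (3608) had an SD of 1.63.

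Just inside the floor in ZOL were Magi3, a scaffold protein of cell junctions, at 1.00139 RPKM, and Nrxn3, a synaptic adhesion protein, at 1.00189. Just outside were Brca2, of DNA repair, at 0.996869, and E2f7, a repressor of the cell cycle, at 0.993919. In PBS the deposited values nearest the floor were 1.00012 for Ifi211 (2 reads) and 1.00068 for Oxr1 inside it, and 0.996765 for Pbk and 0.993437 for Parpbp outside it.

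Shorter genes were more often higher in ZOL. From the shortest to the longest quintile of exon length the median log2 ratio was 0.62, 0.40, -0.16, -0.29 and -0.38, and the share at least 2-fold higher went from 43.0% to 18.5%. Among genes with at least 20 reads in both libraries, on the scale of all genes compared, the corresponding medians were -0.21, -0.26, -0.57, -0.62 and -0.50. The gradient was thus shallower there. GC content showed less of a gradient, with medians between -0.29 in the lowest quintile and 0.25 in the fourth one. The spread was narrowest at both ends of expression level: the SD was 1.57 in the lowest quintile of mean level, 2.58 in the middle quintile and 1.54 in the highest.

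**Figure D2:**
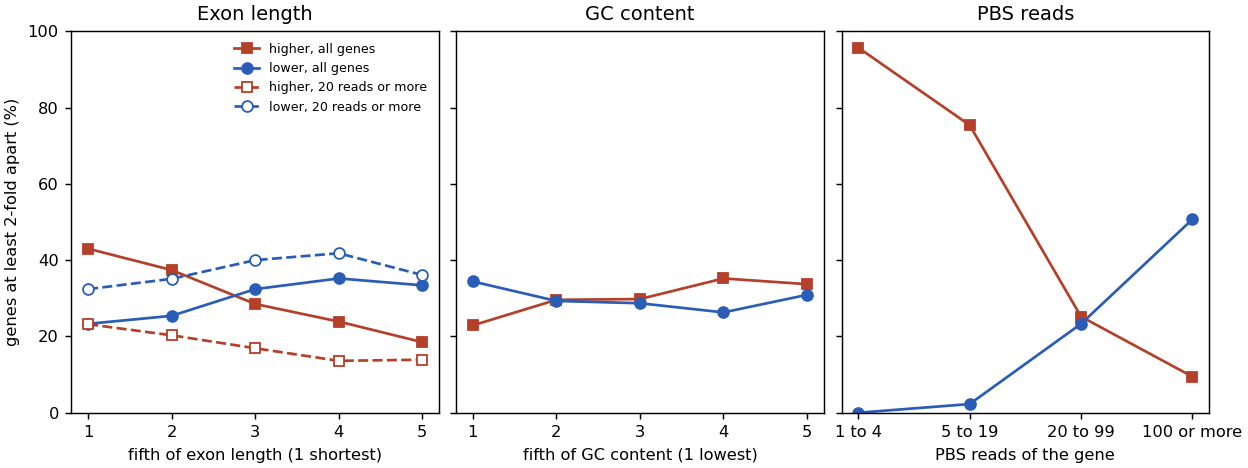
The panels show the percentage of compared genes at least 2-fold higher (red squares) or lower (blue circles) in ZOL, by quintiles of exon length, by quintiles of GC content, and by the number of PBS reads of the gene. Dashed lines with open symbols in the left panel hold only genes with at least 20 reads in both libraries. The share higher goes from 95.7% at 1 to 4 PBS reads to 9.46% at 100 reads or more.

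The labelled cell type was checked first, with coordinates in the mm10 build. Pecam1 (ENSMUSG00000020717; chromosome 11, 106654217 to 106750628), which encodes CD31, stood at 50.6 RPKM in ZOL and at 0.197 scaled RPKM in PBS, from 2 reads, so it fell under the floor and was not compared. Pdpn (ENSMUSG00000028583; chromosome 4, 143267431 to 143299564) stood at 24.6 in ZOL, 11.8 in PBS and 70.2 in ZOL+Ang2, a log2 ratio of 1.06 on 35 PBS reads. Ptprc (ENSMUSG00000026395; chromosome 1, 138062861 to 138175708), whose protein the gate excludes, stood at 0.909 in ZOL and 9.69 in PBS and was not compared either. Prox1 and Lyve1, defining genes of lymphatic endothelium, were listed at 0 in ZOL, and in PBS Prox1 had 2 reads and Lyve1 was listed at 0. Flt4 (ENSMUSG00000020357; chromosome 11, 49609263 to 49652739) stood at 5.71 in ZOL and had 1 read in PBS. ZOL thus held RNA of both surface proteins of the gate, PBS held almost none for CD31, and neither library held more than 2 reads of the defining lymphatic transcription factor.

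Of 20 pan-endothelial genes, 16 were compared and 4 (Pecam1, Erg, Robo4 and Sox18) reached the floor in ZOL only. Of the 16, 5 were at least 2-fold higher, 4 at least 2-fold lower and 7 within 2-fold, with a median log2 ratio of -0.34. The highest ratios belonged to transcription factors of few PBS reads: Fli1 stood at 18.1 in ZOL and 2.11 in PBS (12 reads), and Sox7 at 4.9 and 1.12 (6 reads). Eng, the endothelial co-receptor of the TGF-beta family, stood at 82.1 and 25 (log2 ratio 1.71, 165 PBS reads). The lowest were Icam2, an adhesion protein of endothelium, at 36.3 in ZOL and 131 in PBS, and Tie1 at 11.8 and 37.7. Kdr, Emcn, Clec14a, Mmrn2 and Egfl7 lay within 2-fold. Most of the list was thus present in both libraries, and its 20 genes summed to 779 in ZOL, 648 in PBS and 333 in ZOL+Ang2.

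Lymphatic markers were sparser. Of 16, 6 were compared (2 higher, 2 lower, 2 within 2-fold), 2 lay in ZOL only, 2 in PBS only and 6 in neither. Mmrn1, a secreted protein of lymphatic endothelium, stood at 1.3 in ZOL, 30.1 in PBS (288 reads) and 1.53 in ZOL+Ang2, 23.1-fold lower in ZOL (95% counting interval 19.1 to 28). The guidance protein gene Reln stood at 0.24 and 4.78, in PBS only. Maf, a transcription factor, stood at 0.584 and 2.61, also in PBS only. Ccl21a, the chemokine that guides dendritic cells into lymphatics, stood at 8.5 in ZOL and was listed at 0 in PBS. The median of the 6 was 0.25 (-0.29 with deposited RPKM, -0.10 with equal totals, -0.31 at a floor of 0.5 RPKM), so it has no stable sign.

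Blood endothelial markers were compared in 13 of 18 cases, with 1 higher, 5 lower and a median of -0.70. Cldn5, the main claudin of the blood-brain barrier, was the most abundant, at 539 in ZOL and 1427 in PBS (log2 ratio -1.41, 3293 PBS reads). Sox17, an arterial transcription factor, stood at 4.45 and 59.7, 13.4-fold lower in ZOL (95% counting interval 11.8 to 15.2). Bmx, an arterial kinase, stood at 1.24 and 11.3. Of the brain capillary genes, Car4 stood at 26.3 and 128 and Mfsd2a at 12.2 and 51. Vwf, Flt1, Slc2a1 and Plvap lay within 2-fold. The exception upward was Ackr1, a venular chemokine receptor, at 57.4 against 0.874, on 2 PBS reads and with 25.7% of its exon bases inside other annotated genes. The 5 markers lower in ZOL were thus Cldn5, Sox17, Bmx, Car4 and Mfsd2a, with at least 57 PBS reads each. Another 7 of the 13 lay within 2-fold, so no vessel subtype is read from the 5. Of all genes compared, 23.3% were at least 2-fold lower at 20 to 99 PBS reads and 50.7% at 100 or more.

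Markers of other cell types also differed between the pools, and in a pool of cells fewer cells of a type and less RNA per cell cannot be told apart. Macrophage and neutrophil genes summed to 158 RPKM in ZOL against 1447 in PBS and 1815 in ZOL+Ang2. Of 20 such genes, 6 were compared, of which 5 were lower and none higher, and 6 lay in PBS only, C1qa among them (114 in PBS, listed at 0 in ZOL). Lymphocyte genes summed to 0.501 in ZOL and 195 in PBS, mainly Cd79a, and liver genes to 6.27 and 473, mainly Cyp2e1. Haemoglobin and other erythroid genes summed to 5.47 in ZOL and 264 in PBS, and to 23921 in ZOL+Ang2. Neuronal genes summed to 14.3 in ZOL and 62.0 in PBS, with 2 of 14 compared and 6 in PBS only, and glial genes to 27.2 and 51.3, with 2 of 15 compared. These 6 sums were lower in ZOL, but the compared members did not all follow. The glial genes S100b and Pmp22 had log2 ratios of 0.66 and 1.73, on 9 and 18 PBS reads. The liver gene Ttr had 2.42 on 2 reads and the neuronal gene Slc17a6 1.24 on 9. The counting interval of S100b, from 0.82-fold to 3.51-fold, held equal levels. Of all genes compared, 95.7% were at least 2-fold higher at 1 to 4 PBS reads and 75.4% at 5 to 19. No direction is therefore read from these members.

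In the other direction stood epithelial and mammary carcinoma genes, which summed to 2333 in ZOL, 332 in PBS and 2543 in ZOL+Ang2. Of 18, 7 were compared (5 higher, 1 lower, median 2.69), 5 lay in ZOL only and 1, the transcription factor Elf3, in PBS only. Krt8 (ENSMUSG00000049382; chromosome 15, 101996698 to 102004482), a keratin of simple epithelia, stood at 829.9 in ZOL and 96.2 in PBS on 307 reads, 8.62-fold higher (95% counting interval 7.71 to 9.68), and its partner Krt18 at 882 and 119.6. Wfdc2 stood at 357 and 0.538, and Krt19, Cldn3, Cldn4 and Sfn were listed at 0 in PBS. Cdh1, the adhesion protein of epithelia, went the other way, at 12.3 in ZOL and 41.2 in PBS, and Epcam stood at 61.4 and 31.6, within 2-fold. Keratins were thus higher together in ZOL and the epithelial cadherin was not.

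Mural and fibroblast genes were higher in sum as well: mural genes at 317 in ZOL and 56.9 in PBS, dural and arachnoid fibroblast genes at 615 and 61.9. Acta2, the actin of smooth muscle, stood at 202 in ZOL, 1.38 in PBS (5 reads) and 36.7 in ZOL+Ang2, and the pericyte genes Rgs5 and Pdgfrb were listed at 0 in PBS. Of 12 mural genes 3 were compared, and of 15 fibroblast genes 6. Mgp, an inhibitor of calcification, stood at 292 and 6.2, and Dcn, a matrix proteoglycan, at 20.3 and 1.26, both on 12 PBS reads. Col1a1, of type I collagen, stood at 5.41 and 32.8 on 351 reads. Their median was 1.96 and took the other sign at a floor of 5 RPKM (-0.53, 4 genes). Bone-forming genes summed to 1297 in ZOL and 654 in PBS, nearly all from Spp1 (osteopontin) at 1223 and 645. Pineal genes, from a gland that adjoins the dorsal dura, summed to 53.5 and 17.1, with 5 of 9 in ZOL only. Whether the cell make-up of the pools has a part in any difference below was not tested.

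Of the 10 most abundant genes, 6 lay within 2-fold. By geometric mean these 10 were Fth1, Lgals1, B2m, Rplp1, Rpl36, Ifitm3, Eef1a1, Tmsb4x, Actb and Rpl41. Fth1, the heavy chain of ferritin, stood at 4150.0 in ZOL, 3059 in PBS and 4458 in ZOL+Ang2, a log2 ratio of 0.44. B2m, the light chain of MHC class I, stood at 2224, 1342 and 2699.5 in the same order. Rplp1, Rpl36, Ifitm3 and Tmsb4x had log2 ratios between -0.35 and 0.08. The galectin Lgals1 (ENSMUSG00000068220; chromosome 15, 78926725 to 78930465) was furthest apart, at 5426, 954 and 5910.2, 5.69-fold higher in ZOL than in PBS (95% counting interval 5.4 to 6.0). Eef1a1, an elongation factor, followed at 2206 against 572, and Actb, cytoplasmic actin, stood at 1541 against 648.

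Among genes with at least 20 reads in both libraries, 6 of the 15 lowest are genes of blood cells. Hba-a1 (ENSMUSG00000069919; chromosome 11, 32283511 to 32284465), an alpha globin, stood at 1.66 in ZOL and 193 in PBS and at 11358 in ZOL+Ang2, and Cd52 (ENSMUSG00000000682; chromosome 4, 134082448 to 134095082), a surface glycoprotein of leukocytes, at 3.95, 329.9 and 29.5. Tyrobp, the DAP12 adaptor of myeloid cells, stood at 1.65, 77.3 and 94.8. Clec4n and Clec4d, C-type lectin receptors of myeloid cells that lie side by side on chromosome 6, stood at 1.34 and 4.28 in ZOL against 90.8 and 155 in PBS, and both were listed at 0 in ZOL+Ang2. Lst1, expressed in leukocytes, stood at 2.75 in ZOL and 123 in PBS. The globin pair Hba-a1 and Hba-a2 is nearly identical in sequence, so reads could be split between them.

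The other 9 of the lowest 15 are not known as blood cell genes. Fahd2a stood at 5.63 in ZOL, 271 in PBS and 19 in ZOL+Ang2. Rasd1, a small GTPase induced by dexamethasone, stood at 2.2 and 135. Ddit3 (ENSMUSG00000025408; chromosome 10, 127290774 to 127296288), the CHOP transcription factor of the stress response, stood at 2.51 and 98.2, 39-fold lower in ZOL (95% counting interval 31 to 49.5). Both were listed at 0 in ZOL+Ang2. Sars2, the mitochondrial seryl-tRNA synthetase, Dcxr, a reductase of xylulose, Slc25a17, a peroxisomal carrier, Zfyve19, Ssxb2 and the model AC133103.1 had log2 ratios between -6.08 and -5.01. All 15 had at least 83 PBS reads, and 7 of them were listed at 0 in ZOL+Ang2.

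The 15 highest with that depth had between 21 and 80 PBS reads. Clic1 (ENSMUSG00000007041; chromosome 17, 35049966 to 35058749), a chloride channel protein, led with 543 in ZOL, 8.53 in PBS and 464 in ZOL+Ang2, 63.7-fold higher (95% counting interval 43.1 to 98.4). Vim (ENSMUSG00000026728; chromosome 2, 13573927 to 13582826), the intermediate filament of mesenchymal and endothelial cells, stood at 341, 7.25 and 240.5, and Lmna, lamin A/C of the nuclear envelope, at 171, 8.41 and 163. Glo1, which detoxifies methylglyoxal, stood at 63.6 against 1.27, and Cct5, a chaperonin subunit, at 222 against 4.88. Secreted and matrix proteins were present in this group. Igfbp3, a binding protein of insulin-like growth factors, stood at 143 and 4.31, Fn1 (fibronectin) at 65.5 and 3.36, and Col18a1, the source of endostatin, at 29.4 and 1.92. Klf6, Uba1 (the ubiquitin-activating enzyme), Nt5c2, Psmd2, Ywhae, Psma7 and the connexin Gja1 completed it, with log2 ratios between 3.59 and 4.59. In ZOL+Ang2 14 of the 15 stood at least 2-fold above PBS, the exception being Nt5c2. The genes were picked for a high ratio to these same PBS values, so that count is no separate support.

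**Figure D3:**
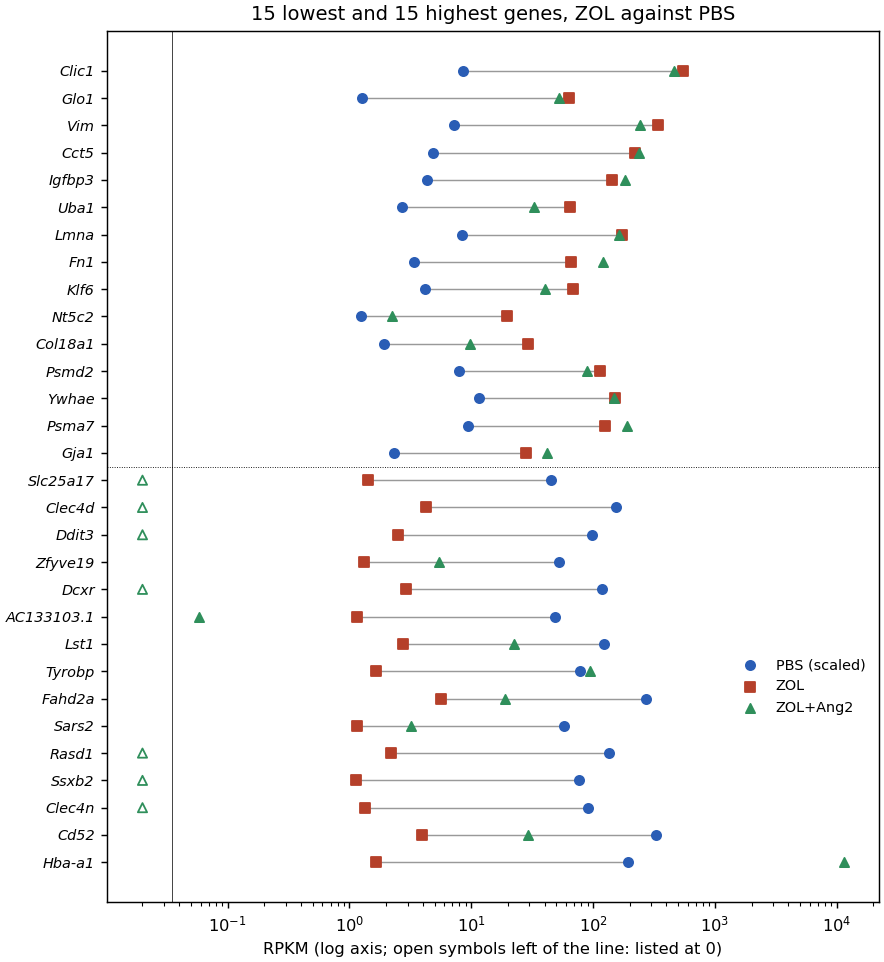
The 15 genes highest and the 15 lowest in ZOL against PBS among genes with at least 20 reads in both, with PBS (scaled, blue circles), ZOL (red squares) and ZOL+Ang2 (green triangles) in RPKM on a log axis. Open triangles left of the vertical line are listed at 0. The ZOL+Ang2 values lie near ZOL for most of the upper genes, whereas among the lower genes they run from 0 to 11358 for Hba-a1.

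Genes of cell division lay at or above the floor in ZOL and often under it in PBS. Of 43 genes of mitosis and chromosome segregation, every one reached 1 RPKM in ZOL, 19 were compared and 24 lay in ZOL only, 15 of these listed at 0 in PBS. Over all 18432 genes 4603 lay in ZOL only, 3056 of them listed at 0 in PBS. Of the 19, 13 were at least 2-fold higher (30.2% of all genes were), 3 lower and 3 within 2-fold, with a median log2 ratio of 2.70 against 0 for all genes compared (0.92 at a floor of 5 RPKM). Cdc20 (ENSMUSG00000006398; chromosome 4, 118432901 to 118437352), an activator of the anaphase-promoting complex, stood at 91.3 in ZOL, 0.986 in PBS and 32 in ZOL+Ang2, and Cks1b (ENSMUSG00000028044; chromosome 3, 89415472 to 89418383), a subunit of cyclin-dependent kinases, at 252, 3.27 and 179.8. Cdk1, the kinase of mitotic entry, stood at 31.1, 0.995 and 23.7 in that order. These 3 rested on 3, 6 and 8 PBS reads. Top2a, the topoisomerase of dividing cells, had 38 PBS reads and stood at 25.6, 2.59 and 16.7. Epithelial and mammary carcinoma genes were higher in the same library, with the sums of 2333 and 332 given above, and their part in the levels of division genes was not tested.

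Genes of this class are known to share promoter elements, the CCAAT box bound by NF-Y and the cell cycle homology region (CHR). Promoters of the 4 genes just named are shown because Cdc20, Cks1b and Cdk1 had the highest ratios of the list and Top2a was a higher gene on a firmer PBS count, and because the elements are textbook features of the group. Each sequence is the 250 bases before the gene's start in RefSeq (GRCm38.p6), 5′ to 3′ on the minus strand, which all 4 genes use, with matches in capitals to CCAAT or TTTGAA on either strand (ATTGG and TTCAAA are their complements). No matches overlapped.
Cdc20 at chr4:118437344-118437593: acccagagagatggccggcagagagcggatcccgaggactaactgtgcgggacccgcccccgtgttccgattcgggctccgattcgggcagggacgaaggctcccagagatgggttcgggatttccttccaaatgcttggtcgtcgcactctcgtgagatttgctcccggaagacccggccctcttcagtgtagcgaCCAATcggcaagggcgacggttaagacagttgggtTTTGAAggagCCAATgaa
Cks1b at chr3:89418292-89418541: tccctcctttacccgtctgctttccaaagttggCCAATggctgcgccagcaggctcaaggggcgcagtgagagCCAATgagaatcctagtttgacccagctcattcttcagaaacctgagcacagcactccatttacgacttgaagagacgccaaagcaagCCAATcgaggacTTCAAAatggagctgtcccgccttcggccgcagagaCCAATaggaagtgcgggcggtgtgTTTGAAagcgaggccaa
Cdk1 at chr10:69352913-69353162: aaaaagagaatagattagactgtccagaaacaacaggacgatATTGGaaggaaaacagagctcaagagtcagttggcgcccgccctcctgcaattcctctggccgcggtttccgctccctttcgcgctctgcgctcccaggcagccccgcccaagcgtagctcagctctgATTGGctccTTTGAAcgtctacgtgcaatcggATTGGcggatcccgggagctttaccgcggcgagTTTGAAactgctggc
Top2a at chr11:99024190-99024439: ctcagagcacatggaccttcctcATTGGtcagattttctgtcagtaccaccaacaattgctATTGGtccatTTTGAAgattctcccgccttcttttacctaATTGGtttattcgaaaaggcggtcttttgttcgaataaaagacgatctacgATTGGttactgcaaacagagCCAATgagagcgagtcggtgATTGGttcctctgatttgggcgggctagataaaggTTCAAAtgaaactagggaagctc
They held 2, 4, 3 and 6 CCAAT matches and 1, 2, 2 and 2 CHR matches. Over the list, 36 of 43 genes matched an entry, and CCAAT was in 78.9% and TTTGAA in 39.5% of their 38 promoters. Among all 32851 promoters the shares were 33.8% and 16%, and among the promoters of the genes compared 34.5% and 11%. A match describes letters in this window and is not a binding site.

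Not every mitotic gene followed. Ttk, a kinase of the spindle checkpoint, stood at 2.44 in ZOL and 13.2 in PBS on 106 reads. Nusap1, a spindle protein, stood at 7.0 and 23.4 on 155 reads, and Kif23, a kinesin of cytokinesis, at 4.04 and 12 on 155. Mki67, the Ki-67 antigen, stood at 12.1 and 6.04 on 99 reads. The genes with the most PBS reads were thus lower or near 2-fold, and those with few reads were higher. Among the 24 genes in ZOL only were Ccnb2 at 81.7, Aurka at 19.7 and Plk1 at 15.3 RPKM, all listed at 0 in PBS.

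The replication fork list gave the like picture. Of 40 genes, 17 were compared (11 higher, 1 lower, 5 within 2-fold), 21 lay in ZOL only, 14 of them at 0 in PBS, and none in PBS only. The median of the 17 was 1.88, but it was 0.23 in the 8 genes at a floor of 5 RPKM and 0.54 in the 9 with at least 20 reads in both libraries. All 4 compared subunits of the MCM helicase, which unwinds DNA, were higher, with log2 ratios from 2.88 (Mcm4) to 3.95 (Mcm5), and the other 2, Mcm2 and Mcm7, lay in ZOL only. Pcna, the sliding clamp, stood at 60.8 in ZOL, 0.767 in PBS (3 reads) and 0.497 in ZOL+Ang2. Rrm1, the large subunit of ribonucleotide reductase, was the 1 gene lower, at 6.76 against 18.2 on 326 PBS reads, while its partner Rrm2 stood at 54 in ZOL and 0.221 in PBS. Promoters of this list held CCAAT in 59.5% and TTTGAA in 13.5% of 37.

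None of the 9 compared p53 targets was at least 2-fold higher in ZOL and 5 were lower, with a median of -1.34 (-0.63 at a floor of 5 RPKM). Sesn1, a sestrin of the stress response, stood at 2.95 in ZOL and 14.49 in PBS, and Btg2, an antiproliferative gene, at 60.7 and 203 on 909 PBS reads. Cdkn1a, the p21 inhibitor of cyclin-dependent kinases, stood at 35.7 and 49.9 and Bax, a pore protein of apoptosis, at 20.7 and 24.5, both within 2-fold. A further 6 of the 20 lay in ZOL only, led by Phlda3 at 39.9 and Mdm2 at 12.3, so the direction of the 9 does not cover the list.

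Immediate early genes, switched on within minutes of a stimulus, were compared in 15 of 20 cases, with 2 higher, 6 lower and a median of -0.73. Nr4a1 (ENSMUSG00000023034; chromosome 15, 101254269 to 101274795), an orphan nuclear receptor, stood at 15.7 in ZOL, 220.2 in PBS (1259 reads) and 6.88 in ZOL+Ang2, 14-fold lower in ZOL (95% counting interval 12.9 to 15.1). Egr1, a zinc finger factor, stood at 18.1 and 75, and Fosb, a partner of JUN, at 3.61 and 15.9. Of the shear-responsive factors, Klf2 stood at 9.9 and 29.2 and Klf4 at 13.5 and 36.4. The class did not shift as 1 block: Fos, at 277 and 273, and Junb, at 184 and 239.8, lay within 2-fold, as did Ier3 at 184 and 189.9. Klf6 was higher, at 68.1 against 4.19 on 30 reads, as was Fosl1 at 25 against 0.719 on 2 reads with 57.2% of its exon bases inside other genes. Myc, under the floor in PBS, stood at 47.1 and 0.452.

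Cytosolic ribosomal proteins were compared in 79 of 86 cases: 30 higher, 5 lower, 44 within 2-fold, median 0.64 (0.10 with deposited RPKM). The small subunit was the most uniform complex among those examined with at least 10 genes, with an SD of 0.74 and a range from -0.62 (Rps24) to 1.82 (Rps13). The large subunit had an SD of 1.36, stretched by Rpl26 at 45.5 in ZOL and 456 in PBS on 1072 reads and by Rpl12 at 68.8 and 2.39 on 14. Ribosomal protein genes have many near-identical pseudogenes, so a single member's value is uncertain.

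The mitochondrial ribosome differed by subunit among the genes compared. Its large subunit had 30 of 49 genes compared, 15 higher and 2 lower with a median of 1.09, and 17 more in ZOL only. Of the small subunit 15 of 29 were compared, 2 higher and 8 lower with a median of -1.02, and 14 lay in ZOL only. Genes in ZOL only could not enter these medians, and no subunit median was taken at another floor. Mrps12 stood at 9.58 in ZOL and 85.6 in PBS and Mrpl14 at 62.3 and 1.29, on 145 and 2 PBS reads. The combined list had a median of 0.32 and took the other sign with deposited RPKM (-0.22) and at a floor of 5 RPKM (-0.54, 30 genes).

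Translation factors were compared in 41 of 62 cases (19 higher, 6 lower, median 0.86). Eif5a, the hypusine-bearing factor, stood at 451 in ZOL and 56.3 in PBS on 218 reads, and Eif3h, of the initiation complex eIF3, at 132 and 1.9 on 5. Eif2b3, of the exchange factor eIF2B, was lower, at 2.55 and 34.9. Of the 4E-binding proteins, which hold back cap-dependent initiation, Eif4ebp2 and Eif4ebp1 were lower as well, at 4.43 and 20.7 and at 29.5 and 66.5. Both had at least 195 PBS reads. Of all genes compared with 100 PBS reads or more, 50.7% were at least 2-fold lower. Cytosolic aminoacyl-tRNA synthetases, which load tRNAs, were at the floor or above in ZOL in 22 of 22 cases, but only 11 reached it in PBS (7 higher, 1 lower, median 1.65). That median took the other sign at a floor of 5 RPKM (-0.18, 5 genes). Vars stood at 76.5 in ZOL and 1.09 in PBS on 10 reads, and Aimp1, a scaffold of the synthetase complex, at 9.87 and 37.4 on 341. Splicing factors (27 of 42, 10 higher, 7 lower) and hnRNP proteins (17 of 24, 5 higher, 2 lower) had medians of 0.47 and 0.36, with the other sign on deposited RPKM (-0.07 and -0.18).

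The proteasome, which degrades ubiquitinated proteins, had 24 of 34 compared genes higher and 1 lower, with a median of 1.46, and a further 10 in ZOL only. Its 20S core had 12 of 15 higher and none lower, from Psmb3 at -0.53 to Psma1 at 6.2. Psma7 stood at 124 in ZOL, 9.39 in PBS (47 reads) and 189 in ZOL+Ang2, and Psmd2, of the 19S cap, at 114, 7.9 and 89.6. The gene lower was Psmc3, an ATPase of the cap, at 51.6 and 164 on 695 reads. Psme2, of the interferon-inducible 11S cap, stood at 175 and 17.7, and the immunoproteasome subunit Psmb9 at 91.7 and 17.6.

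Chaperones were compared in 20 of 25 cases, with 12 higher, 1 lower and a median of 1.38. Among those with over 100 PBS reads, the HSP90 genes Hsp90ab1 and Hsp90aa1 stood at 667 and 208 and at 160.1 and 31.5. Hspa8, the constitutive HSP70, stood at 526 and 147, and Hspa5 (BiP, of the endoplasmic reticulum) at 259 and 88.7. These abundant chaperones were higher, on PBS counts of 202 reads or more, but not all chaperones with over 100 reads were. Hspa9 stood at 30.9 and 54 on 379 reads, within 2-fold, as were Cct8 and Cct3, given below. The 1 chaperone at least 2-fold lower was Hsph1, at 4.59 and 16.8 on 199 reads. Subunits of the chaperonin CCT, which assemble into 1 ring complex, had log2 ratios from -0.32 for Cct8 (544 PBS reads) through 0.05 for Cct3 (587) and 5.51 for Cct5 (22) to 6.74 for Cct2 (4). The high ratios within this complex belonged to the subunits with few PBS reads.

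Genes of the unfolded protein response went both ways: 6 of 18 higher, 5 lower, median 0.32 (-0.22 on deposited RPKM). Besides Ddit3, the lower ones were Hyou1, Herpud1, Atf6 and Dnajb9, and Atf6, a sensor of the endoplasmic reticulum, stood at 4.38 and 19.1. Trib3, which Ddit3 is known to induce, stood at 25.8 and 1.16 on 4 PBS reads, and Pdia6, a disulfide isomerase, at 139.8 and 42.4 on 259. Translocon and coat genes of secretion (26 of 33) had 14 higher, 3 lower and a median of 1.14, which became -0.084 in the 18 genes at a floor of 5 RPKM. Sec61b, a translocon subunit, stood at 96.9 and 0.966 on 2 reads, whereas Sec31a, of the COPII coat, stood at 15.7 and 60.5 on 777. Lysosomal genes (29 of 44) had 10 higher, 5 lower and a median of -0.06 (0.06 with TMM factors, 0.29 with at least 20 reads in both). In the last setting the reset zero alone added 0.45. Ctsk, a collagen-degrading protease known from osteoclasts, stood at 6.23 and 88.9 and Ctsl at 115 and 23.

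In energy metabolism, all 16 ATP synthase genes were compared: 10 were higher, none lower and 6 within 2-fold, with a median of 1.10. Atp5b, the catalytic beta subunit, stood at 292 in ZOL, 67.9 in PBS (469 reads) and 324 in ZOL+Ang2, and Atp5a1, the alpha subunit, at 157, 30.7 and 148. On no other list did the floor leave every gene in. Nuclear genes of complexes I to IV (55 of 67) had 22 higher, 3 lower and a median of 0.45 (-0.09 on deposited RPKM). Sdhb, of succinate dehydrogenase, stood at 106 and 0.822 on 3 reads and Ndufs8, of complex I, at 85.5 and 245 on 515. The citric acid cycle had 5 of 10 higher and 1 lower, with a median of 1.04 (0.16 at a floor of 5 RPKM).

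Glycolysis had 6 of 10 compared genes higher and 2 lower, with a median of 1.68. Pkm, pyruvate kinase, stood at 306 in ZOL and 93.6 in PBS on 763 reads. Eno1, enolase, stood at 227 and 68.7 on 602 reads, and Ldha, lactate dehydrogenase, at 249 and 79 on 426. The 2 lower genes encode the gatekeeping enzymes Hk2 (hexokinase, 2.25 and 9.56) and Pfkl (phosphofructokinase, 29 and 72.9). A further 6 of the 17 genes of the list lay in ZOL only, 4 of them listed at 0 in PBS. Gapdh, which has many near-identical pseudogenes and an uncertain value for that reason, stood at 2.49 in ZOL and was listed at 0 in PBS.

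The mevalonate pathway makes the isoprenoids from which sterols are built and with which small GTPases are prenylated. Of 19 genes of the pathway and of prenylation, 10 were compared (2 higher, 4 lower, 4 within 2-fold, median -0.51), 8 lay in ZOL only and Chml in PBS only. Ggps1, which makes geranylgeranyl diphosphate, stood at 5.34 in ZOL, 15 in PBS (115 reads) and 4.8 in ZOL+Ang2, 2.8-fold lower in ZOL (95% counting interval 2.27 to 3.42). Fdps, which makes farnesyl diphosphate, stood at 1.77 in ZOL and was listed at 0 in PBS, and so was not compared. Pmvk, phosphomevalonate kinase, stood at 50.8, 43.4 and 0.0995, and Idi1, the isomerase, at 6.01, 3.33 and 3.09, both within 2-fold between ZOL and PBS.

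Among the prenylating enzymes, Pggt1b, the beta subunit of protein geranylgeranyl transferase I, stood at 6.5 in ZOL and 15 in PBS, and Chm, the escort protein that presents Rab proteins, at 2.49 and 10.3, both at least 2-fold lower. Fnta, the subunit shared by both CAAX prenyltransferases, stood at 10.4 and 15.9, and Zmpste24, the protease that matures lamin A, at 3.69 and 4.9. The 2 higher genes were Fntb, the farnesyltransferase beta subunit, at 5.63 and 0.77 on 5 PBS reads, and Rabggtb, of the Rab enzyme, at 11 and 0.761 on 3. The 4 lower genes each had at least 114 PBS reads. Of all genes compared with 100 PBS reads or more, 50.7% were at least 2-fold lower.

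Sterol genes (9 of 22) had 3 higher and 4 lower, with a median of 0.14 (-0.40 on deposited RPKM, -0.53 at a floor of 5 RPKM). Cyp51, of cholesterol synthesis, stood at 6.44 in ZOL and 28.6 in PBS on 206 reads. Npc2, of lysosomal cholesterol export, stood at 95.2 and 8.01 on 71. Rab GTPases, themselves prenylated, had 8 of 20 higher and 5 lower (median 0.89).

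In fatty acid metabolism 6 of 12 compared genes were higher and 3 lower, and 3 more lay in PBS only. The median of 0.94 took the other sign at a floor of 5 RPKM (-0.13, 7 genes) and was 0.11 at a floor of 0.5 RPKM (14 genes). Those 3 included the lipid transporter Cd36, at 0.0235 in ZOL and 38.1 in PBS, and Fabp4, a fatty acid binding protein of capillary endothelium and fat, at 0.677 and 16.1. Fabp5 was on the other side, at 25.2 and 1.03 on 6 reads. Acaa2, of mitochondrial beta-oxidation, stood at 7.64 and 117 on 289 reads. Antioxidant enzymes (14 of 23) had 8 higher and 2 lower, with a median of 1.40 (0.71 at a floor of 5 RPKM). Txn1 (thioredoxin) stood at 422 and 169, Gpx4, which reduces lipid peroxides, at 276 and 73.3, and Hmox1 (haem oxygenase) was lower at 16.6 and 64.1. Iron genes (8 of 13) had a median of 0.07 (-0.47 on deposited RPKM, -0.010 at a floor of 5 RPKM), with 2 higher and 1 lower. At that floor the reset zero alone moved ratios by -0.085.

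Of 37 actin regulators all reached the floor in ZOL and 29 in both libraries: 14 were higher, 1 lower and 14 within 2-fold, with a median of 0.95. Capg, a capping protein, stood at 177 in ZOL and 3.88 in PBS on 16 reads, and Gsn (gelsolin) at 151 and 12.6 on 65. Cfl1 (cofilin), which severs filaments, stood at 364 and 139 on 644 reads, and Msn (moesin), which links actin to the membrane, at 94.3 and 27.5 on 283. Within the Arp2/3 complex, which branches actin, Arpc3 stood at 31.9 and 4.89 and Actr2 at 16.3 and 53.4, on opposite sides. Tubulins and stathmin had 5 of 7 higher and none lower, led by Tubb6 at 144 and 1.4 on 6 reads, while Tuba1a stood at 141 and 139. Tubulin genes are close paralogs, and reads may be split between them.

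Annexins and S100 proteins had the widest spread of any list with at least 15 compared genes (SD 3.05). Of 17 compared, 8 were higher and 4 lower, with a median of 0.66. Anxa1, an anti-inflammatory annexin, stood at 285 in ZOL, 3.77 in PBS (18 reads) and 351 in ZOL+Ang2, and Anxa2, on 622 reads, at 444, 102 and 407. S100a6 stood at 1966, 306 and 1463, and S100a11 at 1303, 137 and 1581. The neutrophil genes went the other way, S100a8 at 8.64, 174 and 294 and S100a9 at 26.9, 155 and 287, as did the macrophage and neutrophil markers given above.

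Matrix genes had no common direction. Collagens had 10 of 44 compared (4 higher, 2 lower, median -0.06, 0.05 with TMM factors, 0.36 with at least 20 reads in both), 6 in ZOL only and 13 in PBS only. With at least 20 reads the reset zero alone added 0.45. Of the basement membrane chains, Col4a1 stood at 30.8 and 11.4 and Col4a2 at 32.1 and 5.1, both higher in ZOL. Of the fibrillar chains, Col3a1 stood at 6.0 and 10.4 and Col5a2 at 2.51 and 5.76, and Col1a1, given above, was lower too. Integrins and laminins had 4 of 12 higher and 3 lower (median 0.36, -0.18 on deposited RPKM), with Itgb1, the commonest beta chain, at 68.8 and 9.17 on 61 reads and Lamb1 at 24.8 and 2.1. Matricellular and matrix-modifying genes had 5 of 18 higher and 6 lower (median -0.21, 0.43 at a floor of 0.5 RPKM). Among inhibitors of matrix proteases, Timp1 stood at 94.6 and 4.15 and Timp2 at 40 and 0.945, on 6 PBS reads each, whereas Timp3 stood at 12.4 and 37.5 on 497. Ccn1, a matricellular target of mechanical signalling, stood at 82.8 and 223 on 732 reads.

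Genes of endothelial junctions and caveolae were split evenly, with 4 of 17 higher, 4 lower and 9 within 2-fold (median -0.35). The median was 0.013 with at least 20 reads in both, where the reset zero alone added 0.45. Cav1, which forms caveolae, stood at 27.5 in ZOL, 145 in PBS and 9.9 in ZOL+Ang2, and its partner Cavin2 at 27.7, 193 and 0.837, whereas Cavin1 stood at 132, 168 and 71.3. Cdh5, VE-cadherin of endothelial junctions, stood at 8.9 and 3.65 on 25 PBS reads, Gja1 (connexin 43) at 28.1 and 2.33, and Tjp1 and Ctnnb1 lay within 2-fold. Cavin3 stood at 131 and 1.11, on 3 reads and with 22.5% of its exon bases in other genes.

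On the angiopoietin and VEGF axis, Angpt2 stood higher in ZOL and the TIE receptors lower, each in the direction usual for its PBS depth. Of all genes compared, 75.4% were at least 2-fold higher at 5 to 19 PBS reads, and 50.7% at least 2-fold lower at 100 or more. Angpt2, the angiopoietin stored and released by endothelium, stood at 7.36 in ZOL, 1.16 in PBS (7 reads) and 0.555 in ZOL+Ang2, 6.32-fold higher in ZOL than in PBS (95% counting interval 3.05 to 15.8). Angpt1, the ligand made mainly by mural cells, stood at 0.884 and 4.6, in PBS only. The receptor Tek (TIE2) stood at 12.3, 31.4 and 4.14, and Tie1, its co-receptor, at 11.8, 37.7 and 1.44, both at least 2-fold lower in ZOL on 241 and 302 PBS reads. Ptprb (VE-PTP), the phosphatase that restrains TIE2, stood at 13.8, 31.8 and 9.85. The VEGF receptors Kdr and Flt1 and the co-receptors Nrp1 and Nrp2 lay within 2-fold. Of 20 genes with a row, 8 were compared (1 higher, 3 lower, median -0.66), 5 lay in ZOL only and 3 in PBS only.

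Notch and BMP genes had 4 of 13 higher and 5 lower, with a median of 0.46 (-0.08 on deposited RPKM). Notch1 stood at 1.27 in ZOL and 10.9 in PBS on 253 reads and Notch2 at 7.82 and 1.94 on 34. Acvrl1 (ALK1), the endothelial receptor for BMP9, was lower, at 14.1 and 53.8, while Eng, its co-receptor, was higher. Id1 and Id3, targets of BMP signalling, lay within 2-fold, and Dll4, Hes1, Bmp4 and Smad7 were among 9 genes in ZOL only. TGF-beta genes had 1 of 7 higher and 3 lower (median 0.22, -0.32 on deposited RPKM, -1.07 at a floor of 0.5 RPKM), with Tgfbi, a matrix protein induced by TGF-beta, at 4.92 and 43.3.

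Genes of antigen presentation were more often higher than lower. Of 18 compared genes of MHC and antigen processing, 9 were higher, 1 lower and 8 within 2-fold, with a median of 0.96 and the other 4 in ZOL only. Of the class I heavy chains, H2-D1 stood at 1107 and 507 and H2-K1 at 272 and 125. Psmb8, of the immunoproteasome, stood at 141 and 58.3. Most abundant class II genes lay within 2-fold, Cd74 at 204 and 247, H2-Ab1 at 275 and 376 and H2-Eb1 at 512 and 469. H2-Aa, another class II gene, was higher, at 187 and 80.6, and H2-T22, a nonclassical class I gene with 29.4% of its exon bases inside other genes, was the lower one, at 14.6 and 46.4. Neither class thus stood apart as 1 block. H2-Q6 and H2-Q7 were among the highest, on 6 and 10 PBS reads, but class I genes are close paralogs and reads may be split between them.

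Interferon-stimulated genes had 10 of 19 higher and 2 lower, with a median of 1.02 (0.18 at a floor of 5 RPKM). Igtp, an interferon-gamma GTPase, stood at 127 in ZOL and 0.911 in PBS on 3 reads. Gbp2, a guanylate-binding protein, stood at 190.4 and 23.9 on 98 reads, and Ifitm2, an antiviral membrane protein, at 112 and 15.9 on 17. Ifih1, the RNA sensor MDA5, was lower at 3.37 and 39.3 on 523 reads, as was Ifit1 at 4.18 and 45.5 on 197. Isg15, Irf1, Ifit3 and Bst2 lay within 2-fold, so the list did not shift as 1 block. NF-kappaB and adhesion genes had 4 of 8 higher and none lower (median 1.05), with 13 more in ZOL only. Nfkbia, the inhibitor that NF-kappaB induces, stood at 185 and 56.8 on 149 reads, while the adhesion receptors Vcam1, Icam1 and Sele lay within 2-fold. Of complement and chemokine genes, 6 of 8 were higher and 1 lower (median 1.85, 1.16 at a floor of 5 RPKM), with Serping1, the C1 inhibitor, at 41.8 and 2.11 on 8 reads and Cx3cl1 within 2-fold at 34 and 42.3.

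**Figure D4:**
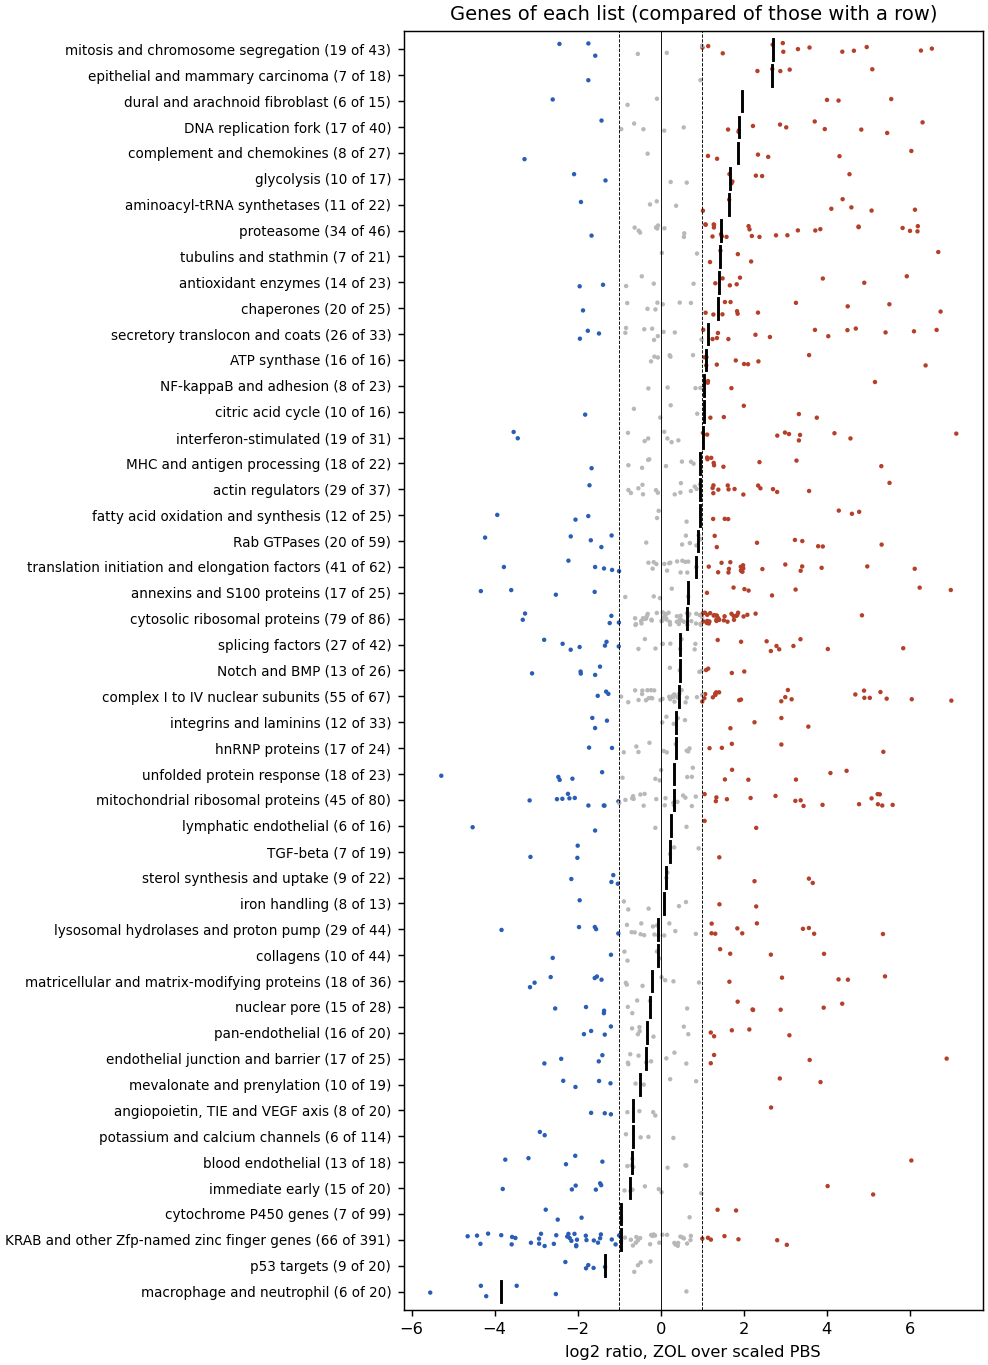
Each dot is a compared gene, placed by its log2 ratio of ZOL over scaled PBS, in the lists reported here with at least 5 compared genes, and black bars are medians. Dots are red at 2-fold or more above PBS, blue at 2-fold or more below and grey between, with dashed lines at 2-fold. The medians run from 2.70 for mitosis to -3.84 for macrophage and neutrophil genes, and 13 lists take the other sign under another scaling of the libraries.

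Large gene classes of low expression in most tissues lay mainly under the floor in 1 library or both. Zfp-named zinc finger genes, many of them repressors with a KRAB domain, had 66 of 391 compared, 7 higher and 32 lower with a median of -0.97, and 71 lay in ZOL only and 80 in PBS only. Zfp362 stood at 1.18 in ZOL and 29.6 in PBS and Zfp263 at 2.69 and 48.1, on 147 and 354 reads. Nuclear pore genes, a smaller class, had 15 of 28 compared, 6 higher and 4 lower (median -0.26), and only 1 under the floor in both. Of 114 potassium and calcium channel genes 6 were compared and 32 lay in PBS only, against 8 in ZOL only. Cytochrome P450 genes had 7 of 99 compared, 34 in PBS only and 6 in ZOL only, and of 91 protocadherins and cadherins 4 were compared, 16 lay in PBS only and 11 in ZOL only. Synaptic and neural adhesion genes had 1 compared, Nrxn3, at 1.0 and 12.6, and 19 of 30 in PBS only. For these classes, the nuclear pore aside, the comparison covers a small minority of the genes.

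The lists thus differed in which library met the floor. Among lists with no gene in PBS only, those with the most genes in ZOL only were mitosis (24 of 43), replication (21 of 40), complement and chemokines (12 of 27) and aminoacyl-tRNA synthetases (11 of 22). The proteasome followed (10 of 46), below the share over all genes. Some lists with 1 gene in PBS only also had many in ZOL only, such as mitochondrial ribosomal proteins (33 of 80) and NF-kappaB and adhesion genes (13 of 23). The most genes in PBS only were zinc finger genes (80 of 391), P450 genes (34 of 99), channels (32 of 114), synaptic genes (19 of 30), cadherins (16 of 91) and collagens (13 of 44). The cadherin share was close to that over all genes. Over all 18432 genes, 4603 lay in ZOL only and 2623 in PBS only. A gene that met the floor in 1 library only could not enter the comparison.

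**Figure D5:**
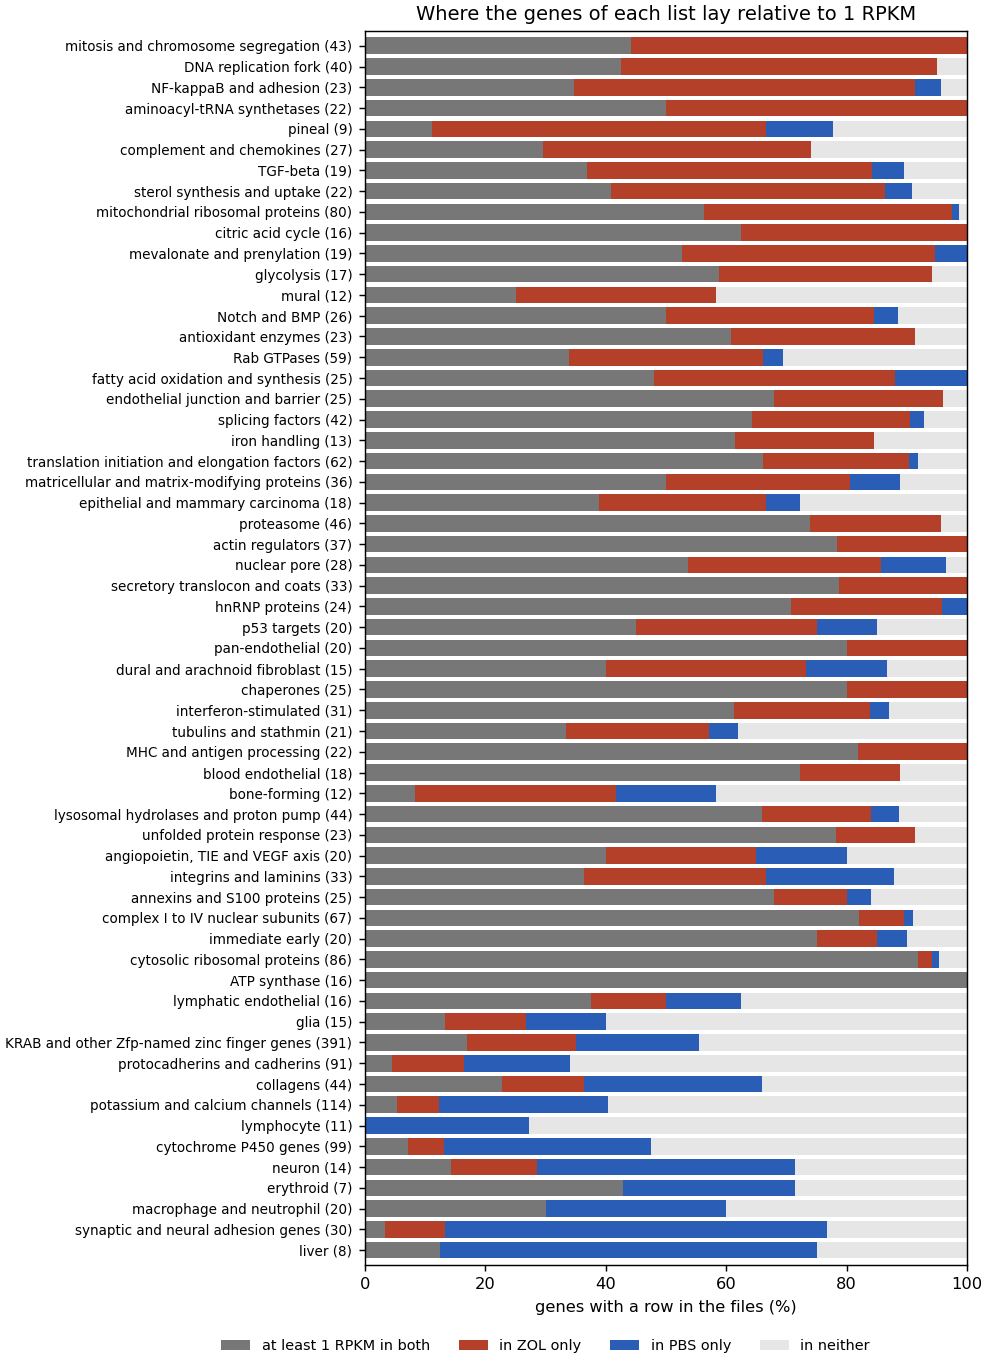
Each bar splits the genes of a list that have a row in the files, in percent, into those at 1 RPKM or more in both libraries (grey, the genes compared), in ZOL only (red), in PBS only (blue) and in neither (light grey). The number of genes is in brackets, and lists are ordered by the share in ZOL only minus the share in PBS only. Mitosis genes stand at the top with 24 of 43 in ZOL only, and liver genes at the bottom with 5 of 8 in PBS only. Over all 18432 genes, 4603 lay in ZOL only and 2623 in PBS only.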

How the data were processed

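RNA of the selected cells was amplified as full-length mRNA, per the labels' protocols, and the authors deposited 1 value per gene and library in RPKM. The submitters' processing notes name fastp, HISAT2 2.2.1, featureCounts 2.0.6 and the mm10 build. The sources used here do not state the annotation release, the library total behind the RPKM or the use of strand in counting, so overlapping genes are uncertain, as are close paralogs.

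Reads were recovered from the deposited RPKM with exon lengths of GENCODE M21. Within a tolerance of 0.01 reads, 96.9% of PBS values, 96.4% of ZOL values and 96.2% of ZOL+Ang2 values came out whole, and 37 of 54532 genes had no length. PBS was multiplied by a constant so that the median log2 ratio of the genes compared was 0. Each alternative floor or read minimum was scaled anew in the same way. Intervals are exact binomial, at 95%, for the ratio of reads. With 1 library per group no test was made.

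Of the genes compared, the text names the 15 highest and the 15 lowest with at least 20 reads in each library, the 10 most abundant, the 2 highest and 2 lowest of a list where they help the description, the compared genes of the mevalonate list and 6 gate genes, and other list members were picked with their values in view. A few items that this rule names are not reported here. The members and the 60 gene lists were chosen with earlier results of these data known. Cell type lists were used as markers only. Motifs were searched in RefSeq promoters, 250 bases before each start, on both strands. Alternatives were the deposited values, TMM factors, equal totals, a pseudocount of 1 RPKM, floors of 5 and 0.5 RPKM, at least 20 reads in both libraries, ZOL reads thinned to the PBS total, and the filtered names kept in. The steps were tested on simulated data. Python 3.11.15, numpy 2.4.6, pandas 2.3.3, scipy 1.17.1 and matplotlib 3.10.9 were used.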

Additional observations from a re-analysis of the deposited data

How the results depend on the processing

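No paired analysis was possible because each group is 1 library, and for the same reason no replicate could be left out. The share of genes past 2-fold that were higher in ZOL was 50.2% as reported, 35.8% with deposited RPKM, 53.6% with TMM factors and 41.0% with equal totals. These 3 scalings moved the median log2 ratio of all genes compared by -0.54, 0.12 and -0.35. The share was 47.8% at a floor of 5 RPKM and 47.8% among genes with at least 20 reads in both libraries. At a floor of 5 RPKM, 478 genes were higher and 523 lower of 2134. At that floor the median took the other sign in 7 of the lists: aminoacyl-tRNA synthetases at -0.18 (5 genes), dural and arachnoid fibroblast genes at -0.53 (4), translocon and coat genes at -0.084 (18), fatty acid genes at -0.13 (7), mitochondrial ribosomal proteins at -0.54 (30), sterol genes at -0.53 (6) and iron genes at -0.010 (6). The zero reset at that floor moved every ratio by -0.085. Without that shift the medians of translocon and coat genes and of iron genes were not below 0. The sign also turned in 4 lists at a floor of 0.5 RPKM, 5 with at least 20 reads in both, 2 with thinned ZOL reads and 0 with a pseudocount of 1 RPKM. With at least 20 reads the reset alone moved every ratio by 0.45, more than any of the 5 turned medians. Of 50 lists with at least 5 compared genes, the sign of the median held under all 3 scalings in 37, of which 23 were above 0 and 14 below, and not in 13. A named gene past 2-fold could not take the other sign under the scalings, floors or read minimum, with shifts from -0.54 to 0.45. The pseudocount, added after scaling, could not turn a sign either. With thinned ZOL reads, no named gene past 2-fold that had a value took the other sign. What limits single genes is the PBS depth: 939 of the genes compared had fewer than 20 PBS reads, and the interval of 727 genes held a ratio of 1.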
